A study of Canis lupus familiaris with 24 samples.

Results

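*Gata4* and *Gata6* encode a pair of zinc-finger transcription factors that bind DNA sites with the core GATA. They were taken by their gene symbols, and are 2 of the 26 genes in the deposited tables and 2 of the 7 genes with values on day 3. Neither gene has values at the later stages in these tables. Both were measured by RT-qPCR in 8 of the 24 samples. These were 4 samples of undifferentiated canine adipose-derived mesenchymal stem cells (cAD-MSCs), labelled Control_d3, and 4 samples of cAD-MSC-derived definitive endoderm (DE) cells on day 3 of the stepwise protocol. Each of lines 1 to 4 came from the abdominal fat of a different healthy donor dog. The sample titles number the samples of each group from 1 to 4 but name no line or donor. Samples with the same number were taken to come from the same line, 1 in each group. Every comparison within lines below rests on this reading, which the labels do not state. Labels give no donor age per line and no genotype or strain. DE cells were induced with Chir99021, a GSK3 inhibitor, and then with Activin A, and the methods also list sodium butyrate in both media. They grew as floating clusters in serum-free medium, whereas undifferentiated cells grew attached in DMEM, with serum according to the methods. The effect of the agents and that of the culture form therefore cannot be told apart in this comparison.

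GATA factors open and activate genes in early mesoderm and endoderm. *Gata6* acts at the start of endoderm formation, and *Gata4* and *Gata6* together are known for their parts in heart, liver and pancreas development, with overlapping roles in the pancreas. Activin A signals through Smad proteins, and Chir99021 activates the Wnt pathway. In directed differentiation, both agents are used to pass cells through a mesendoderm state to DE, and *Gata4*, *Gata6*, *Sox17* and *Cxcr4* are read as markers of DE. *Gata6* is also expressed in tissues of mesodermal origin, so its transcript alone does not mark endoderm.

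In DE cells, *Gata6* rose and every DE sample lay above every undifferentiated control. *Gata4* exceeded the control of its own line in the DE cells of all 4 lines, but its groups overlapped, and the lines stood at very different levels. Lines that were high for *Gata4* were low for *Gata6*, and other genes of day 3 followed either order. *Gata4* and *Gata6* also stood at opposite ends of the detection range. The threshold cycle (Ct) is the point of the PCR run where the dye signal passes a fixed threshold, and it comes later when there is less template. *Gata6* had the earliest Ct of the 7 genes in 8 of 8 samples, and *Gata4* had the latest in 8 of 8 samples. Ct values of different genes depend on their primers, and this order is not a ranking of mRNA levels. Samples are bulk RNA, so more cells expressing a gene and more RNA per cell cannot be told apart.

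For *Gata6*, the Ct in undifferentiated cells was 24.46 cycles in line 1, 24.93 in line 2, 23.40 in line 3 and 23.33 in line 4. The DE cells of the same lines had a *Gata6* Ct of 22.06, 22.14, 21.08 and 21.40 cycles. All 4 DE samples were earlier than all 4 controls before any normalization (exact two-sided Mann–Whitney U test on the Ct, p = 0.0286). Lines 3 and 4 had the earlier Ct in both groups.

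The reference gene *Gapdh*, a glycolytic enzyme, is not listed itself, and its Ct was derived from the Ct and the deposited ratio of each gene. In lines 1 to 4 the derived Ct of the controls was 22.00, 22.74, 22.39 and 22.39 cycles, and that of the DE cells 21.44, 21.59, 21.71 and 21.97 cycles. *Gata4* and *Gata6* implied the same *Gapdh* Ct within 0.00876 cycles in every sample. *Gapdh* came earlier in DE cells in all 4 lines, by 0.419 to 1.14 cycles, and its mean dropped by 0.700 cycles (p = 0.0286 in an exact permutation test, two-sided). Division by *Gapdh* therefore made the change of both GATA genes smaller. Without any reference gene, the signal of DE samples stood for 4.84 times the *Gata6* and 6.28 times the *Gata4* of the mean control, compared with 3.08 and 3.52 after division. Raw Ct values do not correct for the amount of cDNA in a reaction. Whether that amount or *Gapdh* expression itself differed between the groups was not tested.

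Measured against *Gapdh*, as the deposited linear ratio, *Gata6* was at 0.181, 0.217, 0.498 and 0.522 in the controls of lines 1 to 4. The ratio in DE cells was 0.651, 0.682, 1.55 and 1.49. *Gata6* was detected earlier than *Gapdh* in 2 samples, the DE cells of lines 3 and 4, and no other gene of day 3 was. Relative to the mean of the 4 controls, the *Gata6* expression of DE cells was 3.08 ± 1.39 (SD, n = 4) and that of the controls 1 ± 0.508. The lowest DE sample, line 1 at 1.83, was 1.25 times the highest control, line 4 at 1.47. The groups did not overlap (exact two-sided Mann–Whitney U test, p = 0.0286, the smallest that 4 against 4 samples allow). Of the 7 genes of day 3, 57.1% separated in this way, so that a separation was frequent among the genes chosen for this panel. Over the 7 genes the Benjamini-Hochberg adjusted value of *Gata6* was 0.05, which is not below the threshold. Every separated gene had the same smallest p, so the values of *Gata6* itself could not have made it lower.

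**Figure D1:**
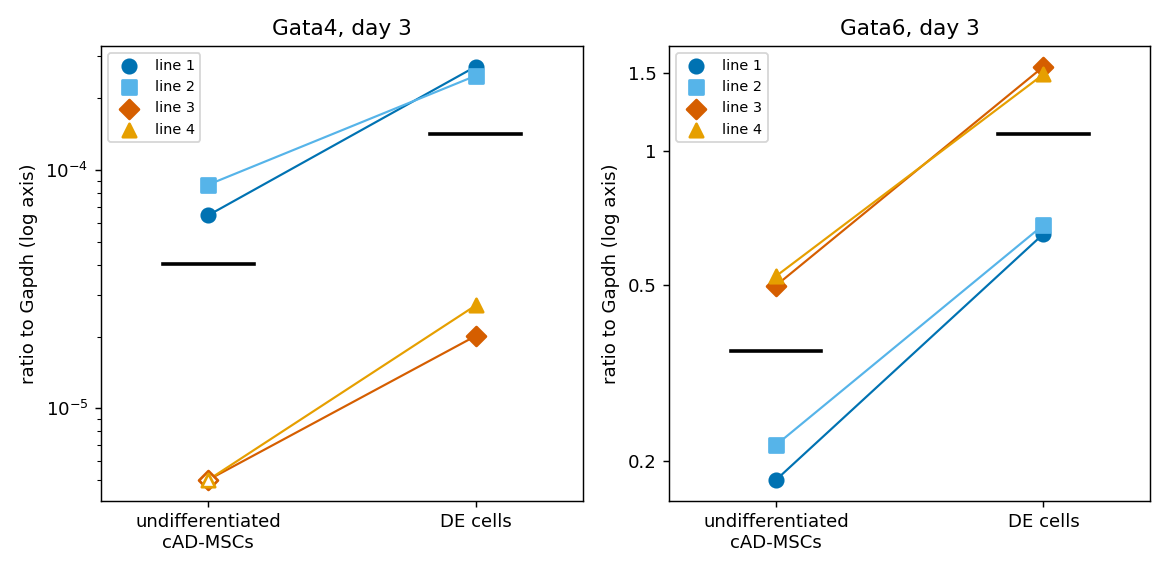
Ratio of *Gata4* (left) and *Gata6* (right) to *Gapdh* in undifferentiated cAD-MSCs and DE cells on day 3, on log axes with a different range in each panel; each point is 1 sample, coloured lines join the samples of a cell line, black bars are group means and open symbols are samples with a Ct of 40. *Gata6* rises from 0.181–0.522 to 0.651–1.55 without overlap, while the *Gata4* controls of lines 1 and 2 lie above the DE cells of lines 3 and 4.

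Within the lines, *Gata6* in DE cells was 3.59 times its own control in line 1, 3.14 in line 2, 3.12 in line 3 and 2.85 in line 4. The mean log2 change was 1.66 with an SD between lines of 0.136. Its change thus varied little from line to line, although the level in controls differed 2.88-fold between lines 1 and 4. An exact sign-flip test over 4 lines cannot go below p = 0.125, the value that *Gata6* reached. A limma model of the log2 ratios of all 7 genes gave *Gata6* a Benjamini-Hochberg adjusted p of 0.0192 without the line and of 1.67e-05 with the line as a factor.

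*Gata4* gave the late signals. Undifferentiated cells had a *Gata4* Ct of 35.92 cycles in line 1 and 36.23 in line 2, and of exactly 40 in lines 3 and 4. These are the only 2 of the 56 Ct values of day 3 at 40, the highest of those values, although the labels describe a run of 45 cycles. They were read as a limit of detection, which makes the *Gata4* level of these 2 controls an upper bound and each change from them a lower bound. In DE cells the *Gata4* Ct was 33.29, 33.57, 37.31 and 37.15 cycles in lines 1 to 4. The next highest Ct of day 3 after the 2 controls, 37.31 cycles, is also a *Gata4* value. *Gata4* thus had a Ct below 40 in the DE cells of all lines, and in 2 of them it was later than in the controls of lines 1 and 2. Melting curves are not given, so whether these late signals come from the *Gata4* product alone could not be checked.

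**Figure D2:**
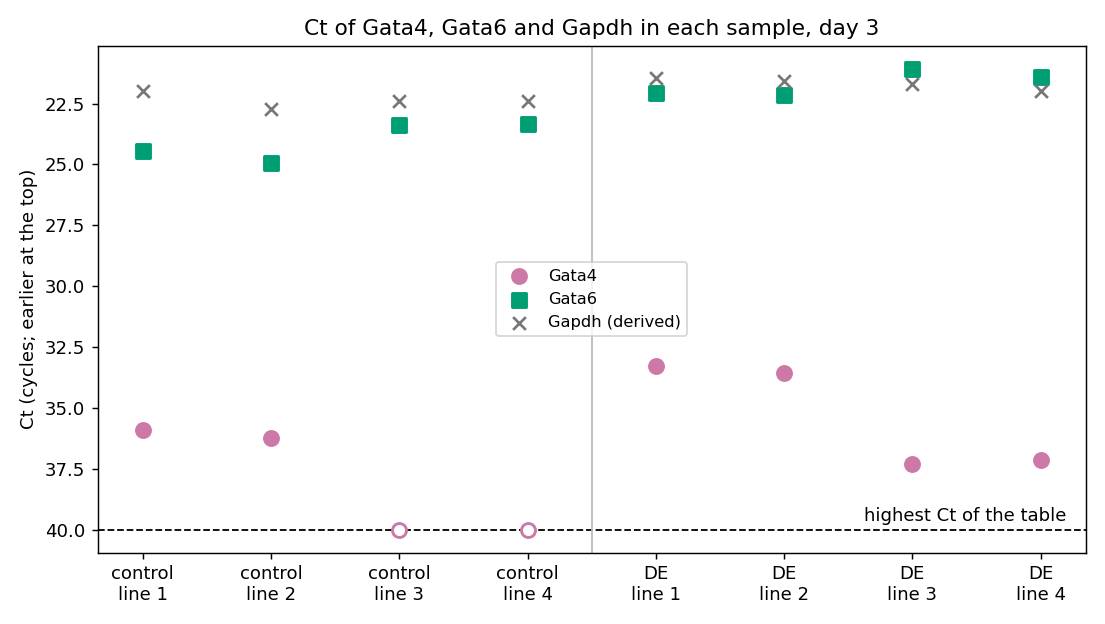
Ct of *Gata4* (circles), *Gata6* (squares) and *Gapdh* (crosses) in each of the 8 samples of day 3, in cycles with earlier values at the top. *Gapdh* was derived from the deposited ratios, as the median over 7 genes. Open circles lie at 40 cycles (dashed line). The label of that line refers to the highest Ct among the values of day 3. *Gata6* stays within 21.08 to 24.93 cycles, near *Gapdh*, and *Gata4* within 33.29 to 40 cycles.

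The ratio of *Gata4* to *Gapdh* was 6.45e-05 in the line 1 control, 8.67e-05 in the line 2 control and 5e-06 in the controls of lines 3 and 4, as deposited from a Ct of 40. In DE cells the *Gata4* ratio was 0.000272, 0.000249, 2.01e-05 and 2.7e-05. Relative to the mean control, DE cells had 3.52 ± 3.40 (SD, n = 4) and undifferentiated cells 1 ± 1.04. The groups overlapped (exact two-sided Mann–Whitney U test, which does not use the pairing by line, p = 0.314). From highest to lowest the order was DE line 1, DE line 2, control line 2, control line 1, DE line 4, DE line 3, and the controls of lines 3 and 4 together. The largest step between neighbours in this order that involves no sample at the limit, 2.87-fold, lay between DE line 2 and control line 2.

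Compared with its own control, *Gata4* was 4.21 times higher in DE cells of line 1 and 2.87 times higher in line 2. The change was at least 4.02-fold in line 3 and at least 5.40-fold in line 4. On the Ct scale, before *Gapdh* enters, the signal came 2.63 and 2.66 cycles earlier in lines 1 and 2, and at least 2.69 and 2.85 cycles earlier in lines 3 and 4. All 4 lines therefore moved upward, which held for 6 of the 7 genes of day 3 (85.7%), *Gata6* among them. In the limma model *Gata4* had an adjusted p of 0.137 without the line, and of 0.000119 once the line was included. The model with lines treats the 2 values at the limit as measured levels. The exact sign-flip test over 4 lines gave p = 0.125, its smallest possible value.

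Both GATA genes were compared directly within each line, where *Gapdh* cancels. In line 1 the log2 change of *Gata4* exceeded that of *Gata6* by 0.23, and in line 2 it was smaller, with a difference of -0.13. The difference was at least 0.37 in line 3 and at least 0.92 in line 4. With these 2 bounds taken as values, the mean was 0.35 with an SD of 0.436 (n = 4 lines), positive in 3 of 4 lines (exact two-sided sign-flip test, p = 0.25). The mean is therefore itself a lower bound, and it was 1.35 with the Ct at the limit set 2 cycles later. In lines 1 and 2, the only lines with both genes measured in both groups, the mean difference was 0.051. A difference in size between the changes of the 2 genes was not shown. The gap between their Ct values describes the same data without any reference gene. The *Gata4* Ct was later than the *Gata6* Ct by 11.46 cycles in the line 1 control and 11.30 in the line 2 control, and by 11.23 and 11.43 cycles in their DE cells. In lines 3 and 4 the gap was at least 16.60 and 16.67 cycles in the controls and 16.23 and 15.75 cycles in DE cells. In DE cells, where all 4 gaps were measured, the gap was wider in lines 3 and 4 than in lines 1 and 2.

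**Figure D3:**
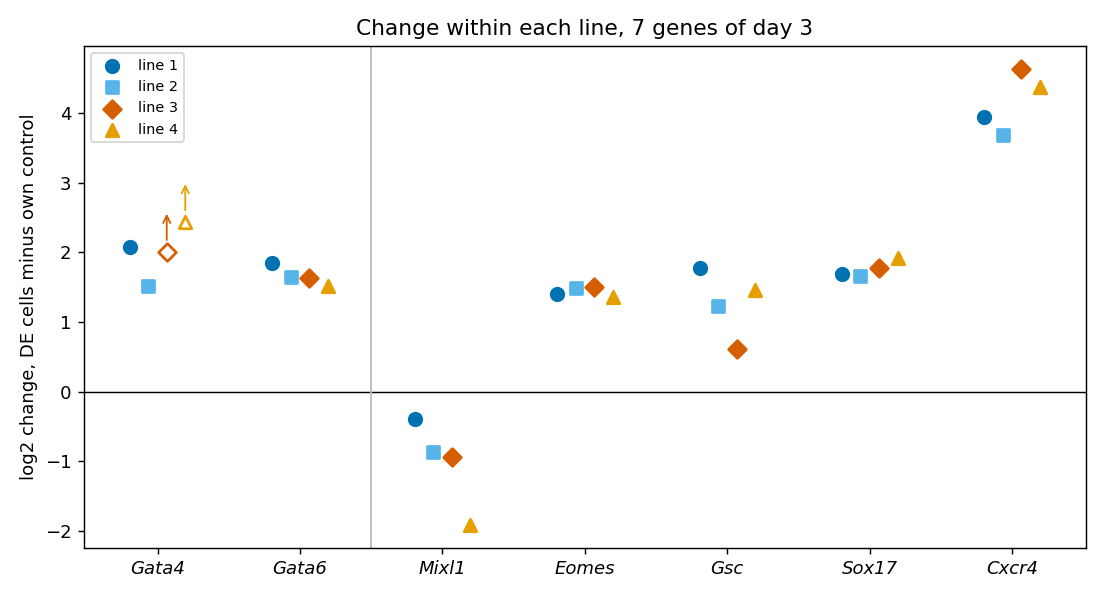
Log2 change of the ratio to *Gapdh* from the undifferentiated control to the DE cells of the same line, for *Gata4*, *Gata6* and the other 5 genes of day 3; each symbol is a line, open symbols with arrows are lower bounds and the horizontal line marks no change. *Gata6* lies between 1.51 and 1.84 in the 4 lines, and *Gata4* at 2.07 and 1.52 in lines 1 and 2 with bounds of 2.01 and 2.43 in lines 3 and 4.

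*Gata4* and *Gata6* differed between the lines in opposite directions. Among undifferentiated cells, the geometric mean *Gata4* ratio of lines 1 and 2 was at least 15.0 times that of lines 3 and 4, and in DE cells it was 11.2 times. For *Gata6* the order was turned, and lines 3 and 4 had 2.57 times the level of lines 1 and 2 in controls and 2.28 times in DE cells. Within the groups, lines 1 and 2 differed from each other by at most 0.43 on the log2 scale for either GATA gene, and so did lines 3 and 4, except that the *Gata4* controls of lines 3 and 4 were both at the limit and their difference is unknown. In controls the *Gapdh* Ct did not follow this order, with 22.00 and 22.74 cycles in lines 1 and 2, on both sides of the 22.39 cycles of lines 3 and 4. In DE cells *Gapdh* was later in lines 3 and 4, at 21.71 and 21.97 cycles, than in lines 1 and 2, at 21.44 and 21.59 cycles, and its part in the order of the lines was not tested. Lines 1 and 2 were set apart from lines 3 and 4 after the values were seen. Labels name no batch, plate or run, and no test was made of this split.

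To describe how much of the spread goes with the group and how much with the line, the sum of squares of the 8 log2 ratios was divided between them. For *Gata4*, 22.7% went with the group, 76.7% with the line and 0.595% with neither. For *Gata6*, 62.5% went with the group and 37.2% with the line, and the remainder was 0.317%. With 4 lines and 2 groups, the line has more degrees of freedom and would take the larger share even without any effect. The shares were not adjusted for this, so line and group shares of a gene are not effect sizes on the same footing. *Gata4* had the largest line share of the 7 genes, followed by *Mixl1*, the homeobox gene of mesendoderm, at 59.7%. The *Gata4* shares take the 2 controls at the limit as measured. With their Ct set 2 cycles later, a setting added after seeing the data, the *Gata4* shares were 27.7% for the group, 67.6% for the line and 4.69% for neither.

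**Figure D4:**
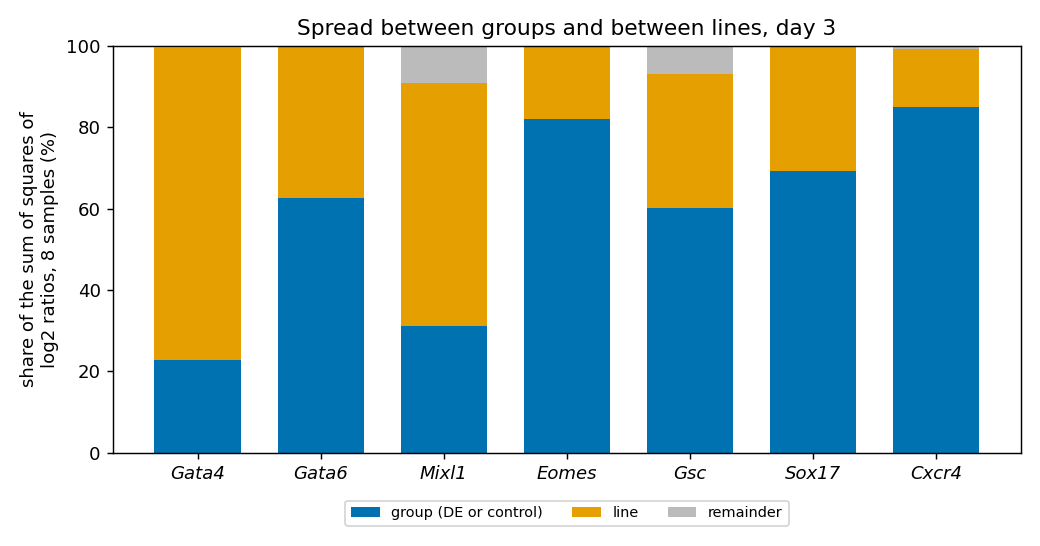
Share (%) of the sum of squares of the log2 ratios over the 8 samples of day 3 that goes with the group (DE or control), the line, or neither, for each of the 7 genes. The line takes 76.7% for *Gata4* and 37.2% for *Gata6*.

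Among the other mesendoderm and DE genes of day 3, 3 of 5 had all DE samples above all undifferentiated ones, each at p = 0.0286 by the exact Mann–Whitney U test, and 0 had them below. They were *Eomes*, a T-box factor of mesendoderm, *Sox17*, a DE transcription factor, and *Cxcr4*, a chemokine receptor of DE cells. The groups of *Gsc*, a homeobox gene of the organizer, and of *Mixl1* overlapped. Within the lines *Gsc* was higher in the DE cells of 4 of 4 lines, with a mean log2 change of 1.27, and *Mixl1* was lower in 4 of 4, at -1.02, opposite to both GATA genes. With the line in the limma model the adjusted p was 0.00227 for *Gsc* and 0.0124 for *Mixl1*. The median of the mean log2 changes within lines was 1.44 over these 5 genes and 1.66 over all 7, where *Gata6* itself is the median. The mean log2 change was 1.66 for *Gata6*, 1.76 for *Sox17* and 4.16 for *Cxcr4*, and for *Gata4*, where 2 of the 4 lines gave only bounds, it was at least 2.01.

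The profile of *Gata6* over the 8 samples was closest to that of *Sox17*. After each gene was centred on its own mean, the log2 ratios of *Gata6* and *Sox17* differed by a root mean square of 0.21, and those of *Gata6* and the next gene, *Eomes*, by 0.94. In DE cells *Sox17* also stood higher in lines 3 and 4, at 5.46 and 4.17 relative to the mean control, than in lines 1 and 2, at 1.95 and 2.21. *Gata4* had no gene as close, with 1.46 for *Gsc* and 1.49 for *Cxcr4*. *Gata4* and *Gata6* differed by 2.50, the largest difference that *Gata6* had with any of the other 6 genes. The distances of *Gata4* take its 2 controls at the limit as measured. All distances are descriptions over samples that share 4 lines, and the genes of a sample share its cDNA and its *Gapdh* value.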

How the data were processed

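RNA of 8 day 3 samples, 4 undifferentiated and 4 DE, was extracted by the authors with TRIzol and Direct-zol, reverse transcribed with ImProm-II and amplified with SYBR Green. The authors deposited Ct values without normalization, in cycles, and the linear ratio of each gene to *Gapdh*, which assumes doubling in each cycle. Their table of fold changes was not used. Replicate wells, melting curves, amplification efficiency and the qPCR analysis software are not given in the sources used here. qPCR values carry no read depth, and precision falls as Ct rises. The other 16 samples hold no values for these genes.

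Samples were grouped from their titles, and rows were matched by symbol and row identifier. Relative expression divides each ratio by the control mean (4 samples). The main test was the exact two-sided Mann–Whitney U test named in the study's methods, by enumeration, with a threshold of 0.05. A Ct within 0.1 cycles of the highest of day 3 was taken as at the limit. Samples with the same number in their titles were taken to share a donor. Their deviations from the group means correlated across 7 genes with r from 0.937 to 0.986. Samples of different numbers were not compared, so this r does not show which samples share a donor. The pairing was used as an alternative. The genes named are the 2 members, the other genes of day 3 and *Gapdh*, and the likeness rule names the 2 closest genes of each member. Members, lists and tests were chosen with earlier results of these data known. Scripts ran in Python 3.11.15 (numpy 2.4.6, scipy 1.17.1, matplotlib 3.10.9) and R 4.3.3 (limma 3.58.1), and were tested on simulated data. Alternatives covered the test, its adjustment, the pairing, the reference, the mean, the amplification per cycle, the limit, a Ct filter and each line left out.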

Additional observations from a re-analysis of the deposited data

How the results depend on the processing

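*Gata4* kept its direction under all 17 alternatives, from 1.18 with the remaining genes of day 3 as the reference to 6.28 without a reference gene. It passed the threshold only in limma with the line as a replicate block (4.02, adjusted p = 0.000119). *Gata6* kept its direction under 15 of 16. The exception was the use of the remaining 6 genes as the reference, which gave 0.999 (exact test, p = 0.686). That reference is made of genes most of which were themselves higher in DE cells. The call of *Gata6* was also lost after Benjamini-Hochberg adjustment (3.08), with the changes paired within lines (3.16, exact sign-flip p = 0.125), in lines 1 and 2 alone (3.34) and in lines 3 and 4 alone (2.98), a split made after seeing the data. The paired test of 4 lines and an exact test of 2 against 2 samples, which cannot go below p = 0.333, could not reach the threshold, so these losses say nothing about stability. The Benjamini-Hochberg adjusted value of *Gata6*, 0.05, was set by the number of genes at the smallest exact p. *Gata6* itself could not have gone lower, so this loss says nothing about its stability either. Without 1 line in turn, *Gata6* ranged from 3.01 to 3.22, and its groups stayed apart at p = 0.1, the smallest that an exact test of 3 against 3 allows. Without a reference gene *Gata6* was 4.84. At 1.8 instead of 2 times growth per cycle the changes were 2.93 for *Gata4* and 2.60 for *Gata6*. A filter on late genes (mean Ct from 35 upward in DE cells and controls) removed *Gata4* and kept *Gata6*. The difference between the log2 changes of the 2 genes ranged from 0.16 to 0.51 without 1 line in turn, and was 1.35 with the Ct at the limit set 2 cycles later.

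Of the 7 genes, 4 separated in the main test, all higher in DE cells. The count was 7 in limma with the line as a replicate block and 7 by direction within lines, each with 6 higher and 1 lower. It was 2 with the other genes as the reference (1 higher, 1 lower) and 0 after adjustment. With 3 or 2 lines p cannot go below 0.1 or 0.333, so bare non-overlap was counted. That gave 6 in lines 1 and 2, all higher, and 7 in lines 3 and 4 (6 higher, 1 lower). Without 1 line it gave 4 to 5. Precision for *Gata4* is limited by late Ct values and by 2 controls at the limit.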
